A study of Mus musculus with 6 samples.

Results

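The genes described here mark the distal nephron, from the thick ascending limb of the loop of Henle through the distal convoluted and connecting tubule to the collecting duct. They were chosen by name as a fixed set of 28 symbols, and all 28 were found among the 31815 gene rows of the count table. The set was divided into 4 groups by the segment or cell that each gene is best known from: 7 genes of the thick ascending limb, 8 of the distal convoluted and connecting tubule, 8 of collecting duct principal cells and 5 of intercalated cells.

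Cortical and outer medullary tissue of mouse kidneys was dissociated and sorted on day 6 after ischemia reperfusion injury of both kidneys, in which blood flow is interrupted and restored. All animals were male, 9 to 12 weeks old, of the genotype Axin2CreERT2/+:R26RtdT/+:Acta2-GFP, and all received tamoxifen on days 2 and 4 after the injury. Both sorted populations were GFP positive, that is, taken by a reporter of Acta2, the smooth muscle actin gene used to mark myofibroblasts, and that reporter limits the populations to cells with GFP signal. They differed in tdTomato (tdT), which marks cells in which the Axin2 gene, a target of Wnt signalling, had driven the Cre recombinase while tamoxifen was present. Each population has 3 libraries, 1 from each of kidneys 1, 2 and 3, which serve as biological replicates 1, 2 and 3. Positive log2 fold changes mean higher in tdT+GFP+ cells.

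As background, the thick ascending limb reabsorbs salt without water and makes uromodulin, the most abundant protein of normal urine. The distal convoluted tubule and connecting tubule fine-tune sodium, magnesium and calcium, principal cells take up sodium and water under aldosterone and vasopressin, and intercalated cells secrete acid or base. None of these cells is a myofibroblast, and the sorts were not aimed at them.

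Promoter windows of 3 genes are shown because they stand for the patterns in the counts: Umod for the most abundant gene of the set, Slc12a3 for a gene whose libraries did not overlap between the sorts, and Aqp2 for a gene whose libraries did. Each is the 250 bases before the RefSeq start site (GRCm38.p6), 5′ to 3′ on the gene's strand, with the letters of any searched motif in capitals. Umod is at chr7:119479263-119479512 on the minus strand, Slc12a3 at chr8:94328958-94329207 on the plus strand and Aqp2 at chr15:99578806-99579055 on the plus strand.
Umod: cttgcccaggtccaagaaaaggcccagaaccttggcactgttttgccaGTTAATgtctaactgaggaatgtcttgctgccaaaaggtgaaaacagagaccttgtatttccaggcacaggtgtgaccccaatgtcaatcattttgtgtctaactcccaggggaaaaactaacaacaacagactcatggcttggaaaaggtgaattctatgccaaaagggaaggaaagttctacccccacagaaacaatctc
Slc12a3: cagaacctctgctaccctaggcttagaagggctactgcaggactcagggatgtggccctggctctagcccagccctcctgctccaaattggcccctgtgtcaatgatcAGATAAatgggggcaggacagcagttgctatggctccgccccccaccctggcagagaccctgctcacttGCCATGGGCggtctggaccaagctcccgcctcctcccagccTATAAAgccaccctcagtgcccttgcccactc
Aqp2: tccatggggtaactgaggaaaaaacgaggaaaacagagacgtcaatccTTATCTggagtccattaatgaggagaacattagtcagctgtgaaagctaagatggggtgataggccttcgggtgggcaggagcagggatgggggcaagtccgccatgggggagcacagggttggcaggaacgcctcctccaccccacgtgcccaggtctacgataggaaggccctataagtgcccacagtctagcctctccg

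The motifs were searched as exact letters on both strands, and a match is a description of the letters only. In the Umod window the capitals are GTTAAT, short letters bound by HNF1 factors, 202 to 197 bases before the start, and 6.43% of all 32851 RefSeq windows of this length hold it. In the Slc12a3 window they are AGATAA, the letters bound by GATA factors (9.99% of all windows), then GCCNNNGGC for AP-2 factors (13.7%) and TATAAA, the TATA box (12.4%), 32 to 27 bases before the start. The Aqp2 window holds AGATAA on the other strand, read as TTATCT, 202 to 197 bases before the start. Windows were found for 21 of the 28 genes, and the TCF/LEF letters CTTTGAT, those of the factors that act with beta-catenin in Wnt signalling, stood in 0 of these 21 and in 3.21% of all windows.

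Library totals were 25697348 to 33029933 counts, and the distal nephron genes took up between 0.0230% and 0.129% of them. The libraries were led by stromal genes: the summed level of 6 myofibroblast and fibroblast markers was 32262 to 48042 CPM (counts per 1000000 of the TMM-scaled library total), with Col1a1 at 14923 to 21843 CPM. The summed level of the 28 genes was 268, 233 and 705 CPM in tdT+GFP+ replicates 1, 2 and 3 and 581, 966 and 1227 CPM in tdT-GFP+ replicates 1, 2 and 3. Their sum was thus lowest in tdT+GFP+ replicates 1 and 2, and tdT+GFP+ replicate 3 lay above tdT-GFP+ replicate 1. A single gene, Umod, made up 218 of the mean 402 CPM in tdT+GFP+ cells and 576 of 924 CPM in tdT-GFP+ cells. In bulk RNA, fewer cells of a type and less RNA per cell cannot be told apart.

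Of the 28 genes, 27 passed the filter on low counts. The calcium-binding protein gene Pvalb, known from the early distal convoluted tubule, did not: it had 1 count in each of tdT-GFP+ replicates 1 and 3 and 0 in the other 4 libraries, where 3 counts correspond to 0.0915 to 0.114 CPM. Log2 fold changes were negative for 25 of the 27, with a median of -0.75, while 50.1% of all 15462 genes tested were negative and their median was -0.00039. None passed an adjusted p of 0.05 in edgeR's quasi-likelihood test, the fit used throughout, and 0% of all genes did so in either direction. At an unadjusted p under 0.05, 11 of the 27 were lower and 0 higher, beside 6.97% and 3.71% of all genes. Fold changes under -1 were seen in 11 of the 27, beside 3.91% of all genes, and in 5 without tdT-GFP+ replicate 3 or 7 without both libraries of kidney 2.

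**Figure D1:**
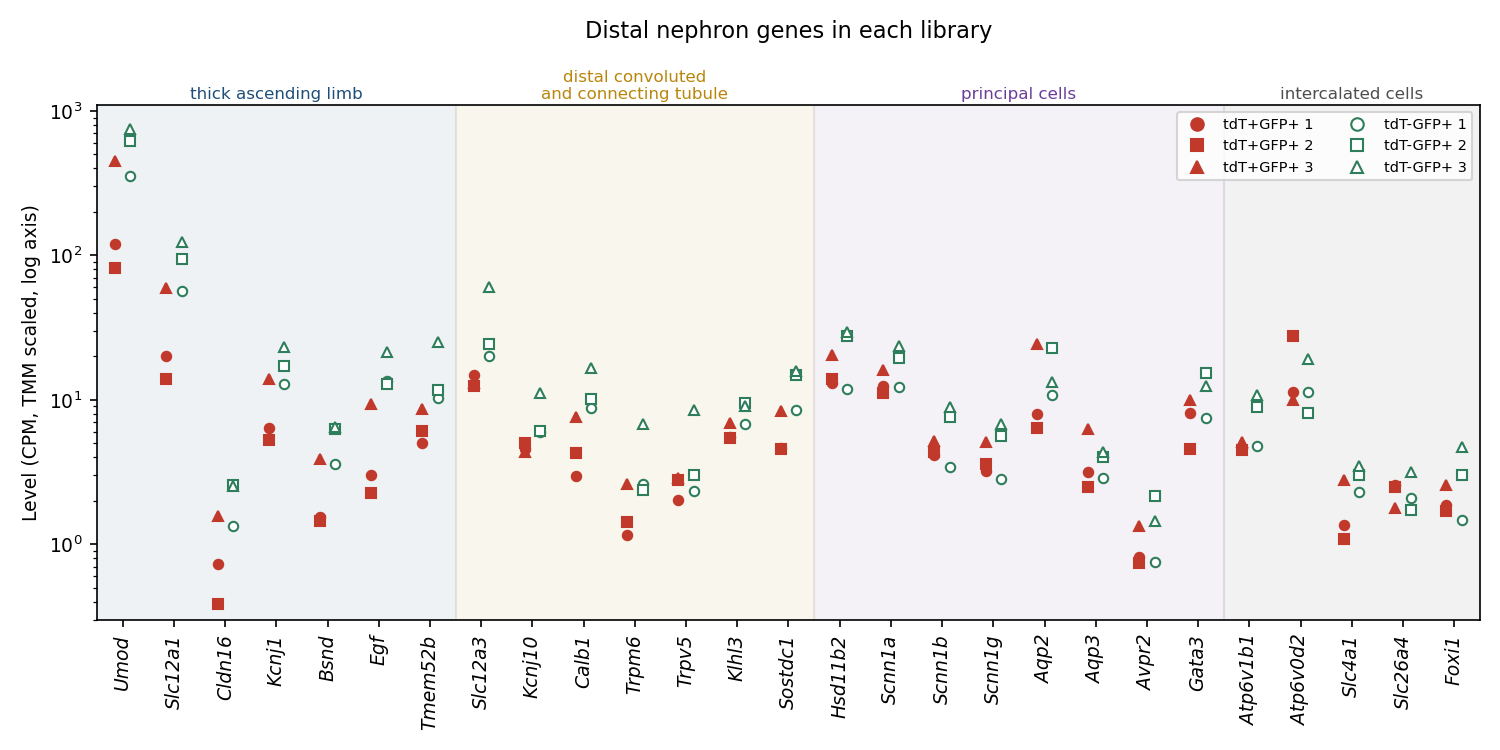
Level of the 27 tested genes in each library, in CPM on a log axis, grouped by nephron segment. Filled red symbols are tdT+GFP+ libraries, open green symbols tdT-GFP+ libraries, and the shape gives the kidney. In the thick ascending limb group, tdT+GFP+ replicates 1 and 2 lie below all tdT-GFP+ libraries for 7 of 7 genes (no share over all genes is given).

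The thick ascending limb group held the most abundant gene of the set, Umod. All 7 of its genes had negative log2 fold changes, with a median of -1.28. That median was -1.92 without tdT+GFP+ replicate 3 and -0.96 without both libraries of kidney 2, where 3 of the 7 were under -1. Each gene was lower in the tdT+GFP+ library of every kidney, with the widest gap in kidney 2 for 6 of them. None passed edgeR's test (0 of 7, adjusted p from 0.429 to 0.487). Umod, the uromodulin gene (ENSMUSG00000030963.6, GRCm38 chromosome 7, 119462711 to 119479282, minus strand, protein coding), had 121, 82.4 and 451 CPM in tdT+GFP+ replicates 1, 2 and 3 and 353, 621 and 754 CPM in tdT-GFP+ replicates 1, 2 and 3. Replicates 1 and 2 of tdT+GFP+ cells were thus low, while replicate 3 was inside the tdT-GFP+ range. The means were 218 ± 203 and 576 ± 204 CPM (SD, n = 3 each), a log2 fold change of -1.40 (SE 0.66, 95% interval -3.00 to 0.19, edgeR adjusted p = 0.487). It was -2.49 without tdT+GFP+ replicate 3 and -0.96 without both libraries of kidney 2.

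Slc12a1 encodes the sodium, potassium and chloride cotransporter that loop diuretics block. Its levels were 20.0, 13.9 and 59.8 CPM in tdT+GFP+ replicates and 56.7, 94.8 and 123 CPM in tdT-GFP+ replicates, the same order of libraries as for Umod, with tdT+GFP+ replicate 3 again above tdT-GFP+ replicate 1. The log2 fold change was -1.56 (SE 0.58, edgeR adjusted p = 0.445). It was -2.42 without tdT+GFP+ replicate 3 and -1.18 without both libraries of kidney 2. Egf, the epidermal growth factor precursor gene, had 3.02, 2.25 and 9.39 CPM against 13.4, 12.9 and 21.6 CPM. The libraries of Egf did not overlap, and its log2 fold change of -1.72 (SE 0.55, edgeR adjusted p = 0.438) was the most negative of the set. It was -2.58 without tdT+GFP+ replicate 3 and -1.38 without tdT+GFP+ replicate 2.

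The remaining genes of this segment were less abundant, with differences of like size. Kcnj1, the potassium channel gene of the apical membrane, had 6.34, 5.25 and 13.9 CPM against 12.8, 17.2 and 23.3 CPM (log2 fold change -1.07, SE 0.41). Bsnd, which encodes barttin, a subunit of basolateral chloride channels, had 1.56, 1.45 and 3.92 CPM against 3.62, 6.31 and 6.45 CPM (-1.25, SE 0.45). In both, tdT+GFP+ replicate 3 was just above tdT-GFP+ replicate 1. Cldn16, a claudin of the paracellular magnesium and calcium path, had 0.732, 0.387 and 1.56 CPM against 1.35, 2.58 and 2.52 CPM (-1.28, SE 0.54), from 12 to 69 counts per library. Its log2 fold change was -1.92 without tdT+GFP+ replicate 3 and -0.77 without both libraries of kidney 2. Tmem52b, a membrane protein gene, had 5.06, 6.12 and 8.63 CPM against 10.4, 11.6 and 25.3 CPM (-1.26, SE 0.39), and its libraries did not overlap. Without tdT-GFP+ replicate 3 its log2 fold change was -0.74.

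Genes of the distal convoluted and connecting tubule were also lower in the tdT+GFP+ library of each kidney, and for 4 of 7 the gap was widest in kidney 3. All 7 tested genes had negative log2 fold changes (median -1.16, and -0.53 without tdT-GFP+ replicate 3), and 0 passed edgeR's test (adjusted p from 0.414 to 0.540). Slc12a3, the thiazide-sensitive sodium chloride cotransporter gene (ENSMUSG00000031766.4, chromosome 8, 94329201 to 94366214, plus strand, protein coding), had 14.9, 12.5 and 13.1 CPM in tdT+GFP+ replicates and 20.2, 24.3 and 60.8 CPM in tdT-GFP+ replicates. The tdT+GFP+ libraries were close to each other and all below the tdT-GFP+ libraries, of which replicate 3 stood far above the others. The log2 fold change was -1.38 (SE 0.42, edgeR adjusted p = 0.421), and -0.72 without tdT-GFP+ replicate 3.

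Sostdc1, a secreted antagonist of bone morphogenetic protein and Wnt signals, had 4.67, 4.57 and 8.37 CPM against 8.56, 14.8 and 15.9 CPM. Its libraries did not overlap, and its adjusted p was the smallest of the set (log2 fold change -1.16, SE 0.33, edgeR adjusted p = 0.414). Calb1, the calcium buffer calbindin, had 2.99, 4.28 and 7.57 CPM against 8.79, 10.1 and 16.7 CPM (-1.27, SE 0.40), and its log2 differences in kidneys 1, 2 and 3 were -1.53, -1.23 and -1.14. The Calb1 libraries did not overlap, and the kidneys gave differences close to each other. The basolateral potassium channel gene Kcnj10 had 4.60, 5.06 and 4.37 CPM against 5.99, 6.12 and 11.1 CPM (-0.72, SE 0.27), also without overlap. Its log2 fold change was -0.37 without tdT-GFP+ replicate 3.

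For the other 3 genes the libraries overlapped. Trpm6, the magnesium channel gene, had 1.16, 1.42 and 2.62 CPM against 2.599, 2.39 and 6.78 CPM (log2 fold change -1.18, SE 0.52, and -0.53 without tdT-GFP+ replicate 3). Trpv5, the apical calcium channel gene, had 2.04, 2.80 and 2.89 CPM against 2.34, 3.03 and 8.52 CPM (-0.84, SE 0.51, and -0.06 without tdT-GFP+ replicate 3). The Trpv5 difference thus rested on that library. Klhl3, which encodes an adaptor that sends WNK kinases to degradation, had 5.52, 5.48 and 6.96 CPM against 6.78, 9.49 and 9.00 CPM (-0.49, SE 0.18).

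**Figure D2:**
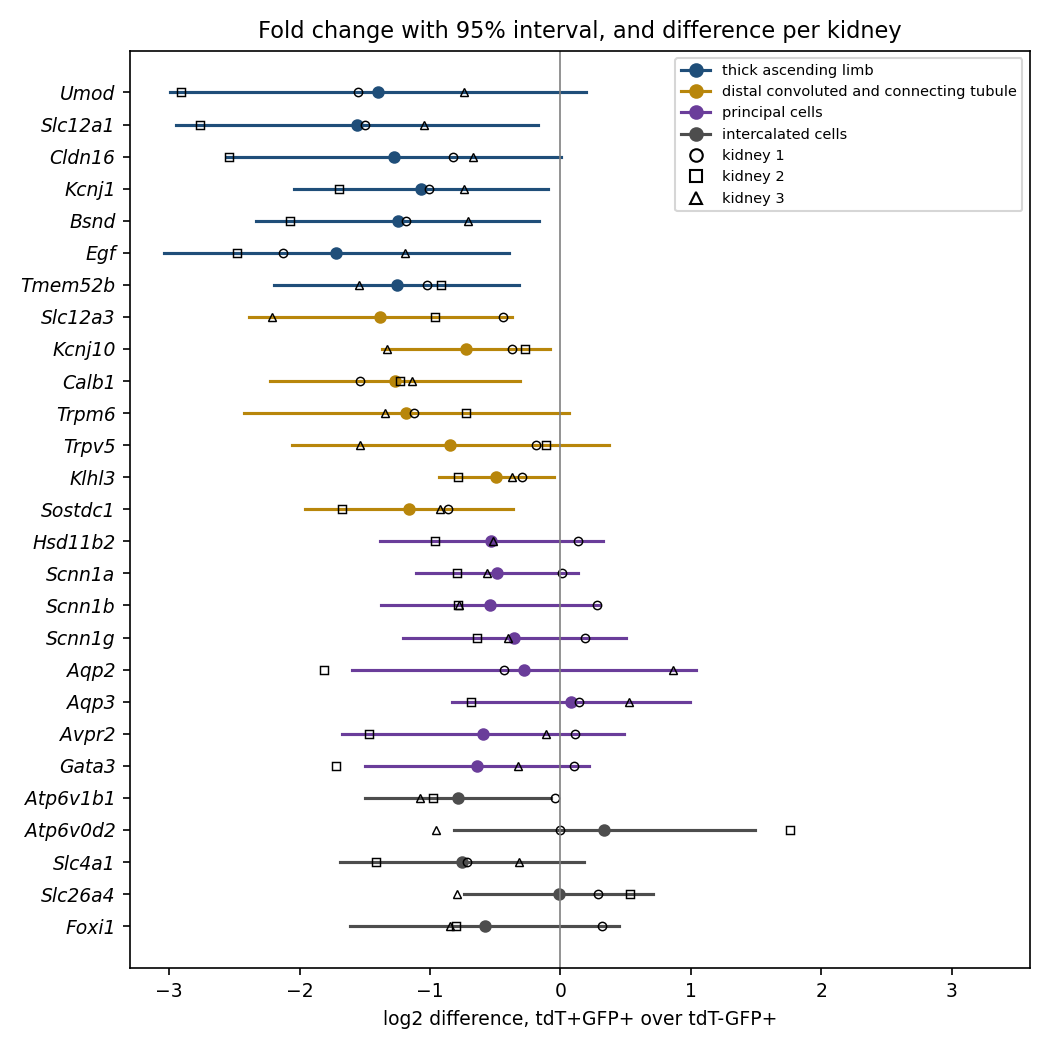
Log2 fold change of tdT+GFP+ over tdT-GFP+ cells for the 27 tested genes. Filled points and bars are the edgeR estimate with its 95% interval, coloured by segment, and open symbols are the differences within kidneys 1, 2 and 3 on log2 CPM with a prior count of 2. All open symbols of the upper 14 genes lie below 0, whereas 8 of 8 principal cell genes have kidneys on both sides.

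Principal cell genes showed smaller differences, and 0 of 8 were lower in all 3 kidneys. No share of all genes lower in all 3 kidneys is given, here or for the other segments. Log2 fold changes were negative for 7 of the 8 (median -0.51), with 0 past edgeR's test (adjusted p from 0.508 to 0.942) and 0 at an unadjusted p under 0.05. Of all genes 6.97% were lower and 3.71% higher at that unadjusted p, so 0 of 8 is near those shares. Aqp2, the vasopressin-regulated water channel gene (ENSMUSG00000023013.5, chromosome 15, 99579055 to 99584547, plus strand, protein coding), had 8.02, 6.41 and 24.2 CPM in tdT+GFP+ replicates and 10.9, 22.7 and 13.3 CPM in tdT-GFP+ replicates. The highest library was tdT+GFP+ replicate 3, and the groups overlapped throughout. Its log2 fold change was -0.28 (SE 0.55, 95% interval -1.60 to 1.04, edgeR adjusted p = 0.847), and it was 0.04 without tdT+GFP+ replicate 2, 0.08 without tdT-GFP+ replicate 2 and 0.41 without both. In the other direction, it was -1.11 without tdT+GFP+ replicate 3 and -1.22 without both libraries of kidney 3. Aqp3, the basolateral water channel gene, was also highest in tdT+GFP+ replicate 3, with 3.17, 2.48 and 6.31 CPM against 2.86, 4.03 and 4.37 CPM (0.08, SE 0.38).

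The 3 subunits of the epithelial sodium channel had like differences. Scnn1a had 12.4, 11.1 and 16.0 CPM against 12.3, 19.3 and 23.7 CPM (log2 fold change -0.48, SE 0.26). For Scnn1b the log2 fold change was -0.54 (SE 0.35) and for Scnn1g it was -0.35 (SE 0.36). In kidney 1 the tdT+GFP+ library was slightly higher for all 3 (log2 differences 0.01, 0.28 and 0.19), and in kidneys 2 and 3 it was lower. Hsd11b2, whose product inactivates glucocorticoids and so lets aldosterone act, had 13.1, 14.0 and 20.5 CPM against 11.9, 27.5 and 29.3 CPM (-0.53, SE 0.36). The vasopressin receptor gene Avpr2 had 0.741 to 1.33 CPM against 0.757 to 2.17 CPM (-0.59, SE 0.45), and its exons overlap those of Arhgap4 on the other strand. Exons of Umod, Egf and Gata3 also overlap those of other genes on the other strand, and those of Gata3 on the same strand too. Gata3, a transcription factor gene of the collecting duct that lymphocytes and mesangial cells also use, had 8.05, 4.57 and 9.97 CPM against 7.50, 15.2 and 12.5 CPM (-0.64, SE 0.36). The T and innate lymphoid cell markers summed to 2.88 to 10.98 CPM, with Cd3e at 0.213 to 0.342 CPM and Il7r at 0.49 to 6.41 CPM. Of the 3 tested, Il7r had a log2 fold change of 1.19 (SE 0.86) and the other 2 were negative. The 6 mesangial cell and pericyte markers summed to 2544 to 3395 CPM. Of these mesangial cell and pericyte markers, 4 had negative log2 fold changes, among them Rgs5 (-1.26) and Notch3 (-0.49), both without overlap, and Itga8 had 0.47. The part of these cells in the Gata3 level was not tested.

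Log2 fold changes of intercalated cell genes were mostly negative, but near 0 for Slc26a4 (-0.01) and positive for Atp6v0d2 (0.34). Of 5 tested, 4 had negative log2 fold changes (median -0.58), and 0 passed edgeR's test (adjusted p from 0.447 to 0.988). Atp6v1b1, a subunit of the proton pump, had 4.64, 4.51 and 5.10 CPM against 4.77, 8.96 and 10.8 CPM (-0.78, SE 0.30). It was the only 1 of the 5 lower at an unadjusted p under 0.05 in edgeR, beside 6.97% of all genes. Its log2 differences in kidneys 1, 2 and 3 were -0.04, -0.98 and -1.08. Foxi1, the transcription factor gene of these cells, had 1.86, 1.71 and 2.59 CPM against 1.48, 3.03 and 4.71 CPM (-0.58, SE 0.43). Both were highest in tdT-GFP+ replicate 3. Slc26a4, which encodes the chloride and bicarbonate exchanger pendrin of base-secreting cells, had 2.59, 2.51 and 1.79 CPM against 2.11, 1.72 and 3.15 CPM (-0.01, SE 0.30, 95% interval -0.74 to 0.71).

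Atp6v0d2 and Slc4a1 are used by other cells as well, and levels of markers of some of those cells are given beside them. Atp6v0d2, a proton pump subunit also known from macrophages and osteoclasts, had 11.4, 27.7 and 9.93 CPM in tdT+GFP+ replicates and 11.4, 8.10 and 19.3 CPM in tdT-GFP+ replicates (log2 fold change 0.34, SE 0.48), with tdT+GFP+ replicate 2 highest. It was -0.28 without that library and -0.53 without both libraries of kidney 2. The 6 macrophage markers summed to 899, 1349 and 366 CPM and to 471, 259 and 809 CPM in the same libraries, again with tdT+GFP+ replicate 2 highest and tdT-GFP+ replicate 2 lowest. Slc4a1, the anion exchanger of acid-secreting cells and of red blood cells, had 1.37, 1.10 and 2.78 CPM against 2.30, 3.03 and 3.48 CPM (-0.75, SE 0.39). The 6 erythroid genes in the table summed to 0.762, 1.68 and 18.7 CPM against 20.4, 14.3 and 17.2 CPM, with Alas2 at 0.0305 to 0.259 CPM. That sum was lowest in tdT+GFP+ replicate 1 and highest in tdT-GFP+ replicate 1. Slc4a1 was lowest in tdT+GFP+ replicate 2 and highest in tdT-GFP+ replicate 3. The part of these cells in either result was not tested.

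**Figure D3:**
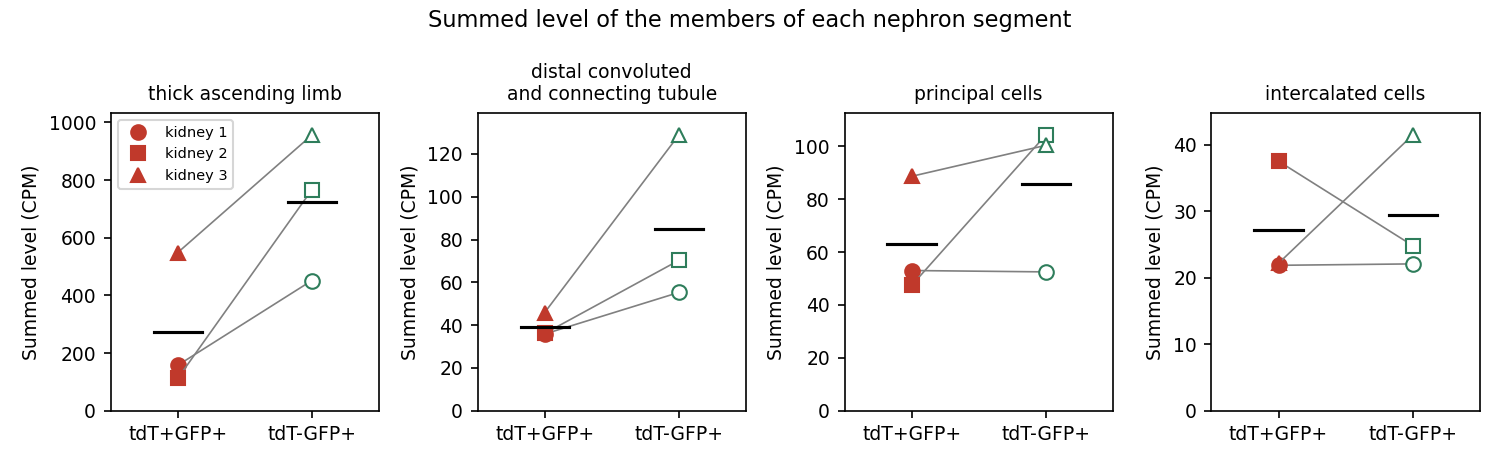
Summed level in CPM of the genes of each segment, per library, with lines joining the libraries of a kidney and black bars for group means. The thick ascending limb and distal convoluted panels have lines that go up from tdT+GFP+ to tdT-GFP+ in all 3 kidneys, and the intercalated cell panel has lines in both directions. In that last panel Atp6v0d2 made up 27.7 of the 37.5 CPM of tdT+GFP+ replicate 2.

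Summed by segment, the thick ascending limb stood at 157, 112 and 548 CPM in tdT+GFP+ replicates and 451, 766 and 956 CPM in tdT-GFP+ replicates, 2.66 times as high in the tdT-GFP+ mean. Most of that sum was Umod, with 218 of the mean 273 CPM in tdT+GFP+ cells and 576 of 725 CPM in tdT-GFP+ cells. The distal convoluted and connecting tubule stood at 35.8, 36.1 and 45.9 CPM against 55.2, 70.2 and 129 CPM (2.16 times). Principal cells had 53.0, 47.4 and 88.6 CPM against 52.5, 104 and 100.3 CPM (1.36 times), and intercalated cells 21.9, 37.5 and 22.2 CPM against 22.1, 24.8 and 41.5 CPM (1.08 times). Atp6v0d2, which other cells also use, made up 16.3 of the mean 27.2 CPM of intercalated cell genes in tdT+GFP+ cells. In tdT-GFP+ cells it made up 12.9 of 29.5 CPM. The other 4 genes of that segment had negative log2 fold changes, so the 1.08 does not describe them. The sums of the distal convoluted and connecting tubule did not overlap between the sorts, and those of the other 3 segments did. Whether the segments differed from each other in their change was not tested.

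Per kilobase of exon the order of levels within a population was led by Umod, at 78.9 ± 73.4 CPM per kb in tdT+GFP+ cells and 208 ± 73.8 CPM per kb in tdT-GFP+ cells (SD, n = 3). In tdT-GFP+ cells Slc12a1 (15.9 ± 5.80), Hsd11b2 (12.5 ± 5.19) and Aqp2 (11.01 ± 4.43 CPM per kb) followed, neighbours whose differences lay within their spread. In tdT+GFP+ cells the places after Umod were taken by Aqp2 (9.08 ± 6.95), Hsd11b2 (8.63 ± 2.17), Atp6v0d2 (6.02 ± 3.63) and Slc12a1 (5.42 ± 4.32 CPM per kb), again within their spread. The lowest tested genes were Trpm6 in tdT+GFP+ cells (0.225 ± 0.101 CPM per kb) and Avpr2 in tdT-GFP+ cells (0.504 ± 0.244 CPM per kb).

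Set against Umod in the same library, the genes of the thick ascending limb varied less between libraries, by the median, than those of the other segments. For every 100 counts of Umod there were 16.6, 16.9 and 13.2 counts of Slc12a1 in tdT+GFP+ replicates and 16.1, 15.3 and 16.4 in tdT-GFP+ replicates, a ratio of 1.27 between the highest and the lowest library, while Umod itself ranged from 82.4 to 754 CPM. That ratio had a median of 1.94 over the 6 genes of this segment beside Umod, with Tmem52b widest at 3.97. It had a median of 5.21 over the distal convoluted and connecting tubule, 4.86 over principal cells and 4.94 over intercalated cells, with 25.7 for Atp6v0d2. For Aqp2 the values were 6.65, 7.78 and 5.37 counts per 100 of Umod against 3.07, 3.66 and 1.76, higher in every tdT+GFP+ library. These ratios share Umod as denominator, so that a library low in Umod is high for the rest, and they were not tested.

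**Figure D4:**
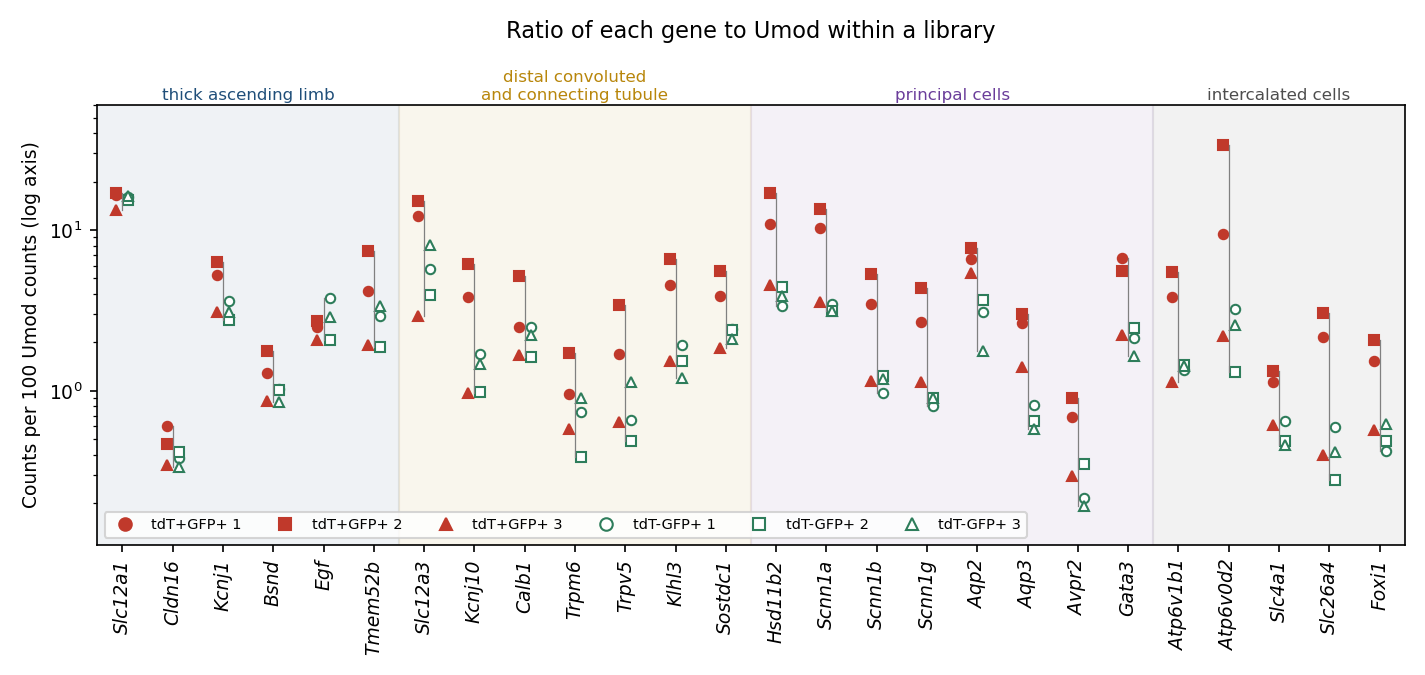
Counts of each gene per 100 counts of Umod in the same library, on a log axis, with grey lines from the lowest to the highest library. Slc12a1 spans 13.2 to 16.9, and most genes of the other segments are highest in tdT+GFP+ replicates 1 and 2, where Umod is low.

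The order of libraries was shared by many of the genes. Of the 27 tested, 20 were highest in tdT-GFP+ replicate 3 and 16 lowest in tdT+GFP+ replicate 2. For 16 genes both tdT+GFP+ replicates 1 and 2 lay below every tdT-GFP+ library, and for 19 tdT+GFP+ replicate 3 was at or above tdT-GFP+ replicate 1. No share over all genes is given for these counts, so whether they are particular to the set is not known. Libraries did not overlap for 6 genes, all lower in tdT+GFP+ cells (Egf, Tmem52b, Slc12a3, Kcnj10, Calb1 and Sostdc1), beside 8.6% of all genes tested, and 0 were higher without overlap, beside 7.24%. The 12 markers of any kidney epithelium summed to 283, 276 and 518 CPM against 362, 572 and 805 CPM, with Cdh16 at 80.4 to 259 CPM and Epcam at 10.8 to 44.4 CPM. Markers of a cell type outside the tubule had differences of like size: the log2 fold change was negative for 6 of 6 endothelial markers (median -1.28), and their sum was 366, 611 and 468 CPM in tdT+GFP+ replicates against 1092, 754 and 1375 CPM in tdT-GFP+ replicates. All 6 were lower at an unadjusted p under 0.05, beside 6.97% of all genes, and edgeR's adjusted test called 0, beside 0%. DESeq2 called 5 lower, beside 1.81% of all genes, and 4 with the kidney as a block, beside 1.66%. Pecam1 and Emcn did not differ in that direction in kidney 2 (log2 differences 0.04 and 0.03). The part of either list in the differences of the distal nephron genes was not tested.

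Calls depended on the tool and on whether the kidney entered the model. The DESeq2 Wald test called 2 of the 27 lower, Slc12a3 (adjusted p = 0.0347) and Sostdc1 (0.0485), beside 1.81% of all genes with an adjusted p. With the kidney as a block DESeq2 called 8 lower, beside 1.66%: Umod (adjusted p = 0.00037), Slc12a1 (3.3e-05), Kcnj1 (0.00627), Egf (5.7e-05), Tmem52b (0.00132), Slc12a3 (0.0447), Calb1 (0.00022) and Sostdc1 (0.00891). All 8 belong to the thick ascending limb or the distal convoluted and connecting tubule. The 0 called among principal and intercalated cell genes is near the 1.66% of all genes, and so does not set those genes apart. These calls, like the differences given per kidney, rest on the kidney numbers in the labels, and same-numbered libraries did not deviate together from their group means (correlations 0.04, -0.58 and -0.30). In edgeR the block left 0 calls (smallest adjusted p of the set 0.215, for Calb1), and limma-voom also gave 0. DESeq2 called 0 of the 27 higher, beside 0.117% of all genes, or 0.287% with the block.

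Other genes of the distal nephron, from a list of 49 that does not share members with the 28, were also mostly negative. Of 48 tested, 41 had negative log2 fold changes (median -0.48), 0 passed in edgeR or in DESeq2 without the block, and 10 were lower at an unadjusted p under 0.05, beside 6.97% of all genes. The 3 with the smallest p were Cnnm2, a magnesium transport gene, with 19.9, 17.9 and 24.8 CPM against 28.9, 28.3 and 29.8 CPM (log2 fold change -0.47, SE 0.13, edgeR adjusted p = 0.409), the mineralocorticoid receptor gene Nr3c2 (-0.93, SE 0.29) and Tmem213 (-1.37, SE 0.45). Only Cnnm2 of these 3 had libraries that did not overlap. Among the 3 most abundant were the kinase genes Wnk1 (0.01, SE 0.10) and Sgk1 (-0.05, SE 0.07). With the kidney as a block DESeq2 called 7 lower, beside 1.66% of all genes, among them the calcium-sensing receptor gene Casr (DESeq2 adjusted p = 0.0036) and the sodium pump genes Fxyd2 and Atp1b1.

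**Figure D5:**
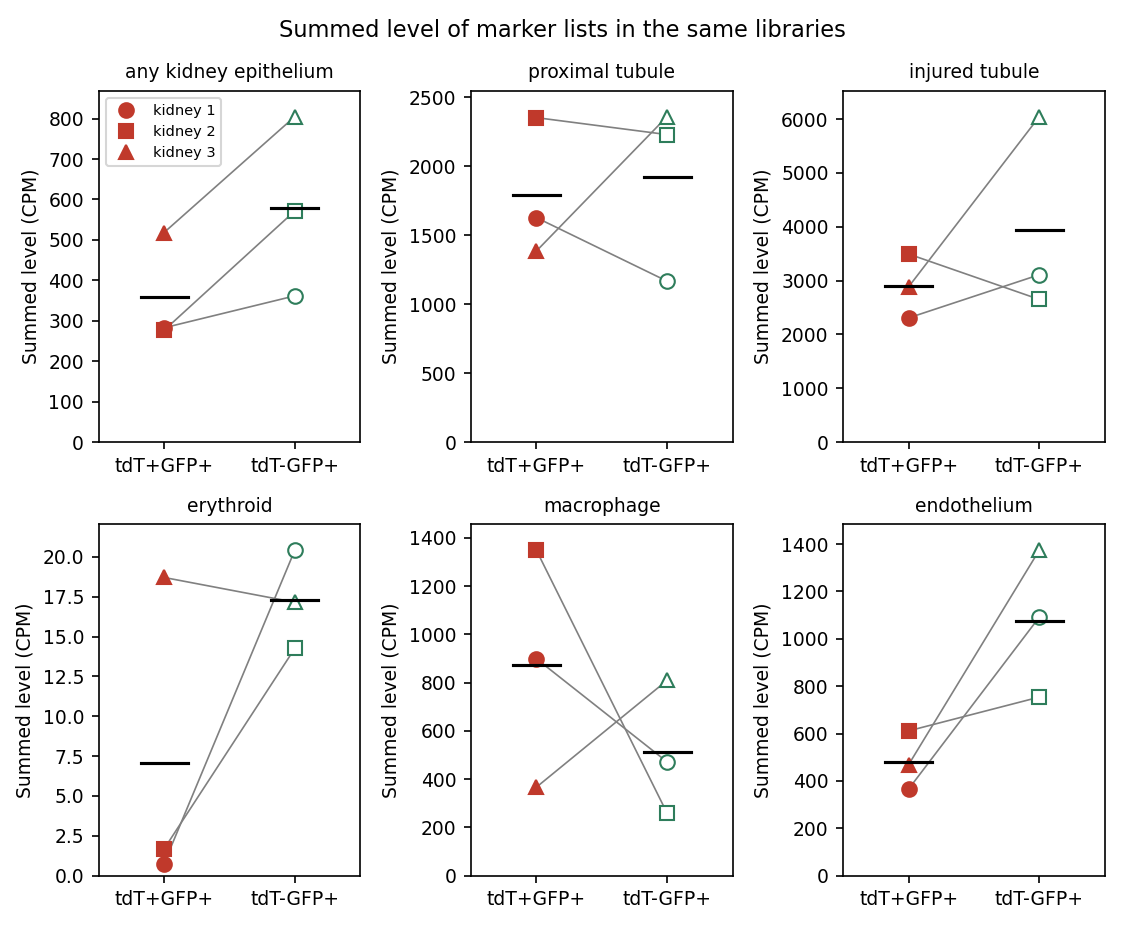
Summed level in CPM of 6 marker lists in the same libraries, with lines joining the libraries of a kidney and black bars for group means. Erythroid genes are near 0 in tdT+GFP+ replicates 1 and 2 only (0.762 and 1.68 CPM), macrophage markers are highest in those same 2 libraries, and the endothelial sum is lower in the tdT+GFP+ library of each kidney.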

How the data were processed

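Poly(A) RNA was sequenced from 6 libraries of sorted kidney cells, 3 per group, per the labels. The authors deposited estimated counts per gene (RSEM gene tables, per the file headers), whole numbers as deposited, so that rounding changed 0 values. Per the submitters' processing notes, the tools were R 3.6.3, DESeq2 1.26.0, RSEM 1.2.28, STAR 2.6.1 and bcl2fastq 2.20, and the builds mm10 and GRCh38, with no role stated. Both the annotation and strand setting are not given in the sources used here. Where exons overlap on opposite strands, genes may share reads. The table's 92 spike-in rows, all at 0, were left out. Positions and exon lengths are from GENCODE M21 (GRCm38), which held 31748 of 31815 gene identifiers without version, and promoter windows from RefSeq.

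After filterByExpr and TMM scaling, edgeR 4.0.16 (quasi-likelihood, robust, group only) tested each gene in R 4.3.3, with Benjamini-Hochberg adjustment over all 15462 genes. The SE is the coefficient over the square root of F. The test was tried on simulated data. Alternatives were DESeq2 1.42.0, limma-voom 3.58.1, other scalings and filters, the kidney as a block, and leaving out each library or kidney. Same-numbered libraries come from 1 kidney, per the labels. Their deviations from the group means correlated by 0.04, -0.58 and -0.30 for kidneys 1, 2 and 3. The pairing thus rests on the labels alone, and the kidney numbers may be worth checking.

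The members and lists were chosen with earlier results of these data known. All 28 members are named; of other lists, the 3 most abundant genes and the 3 with the smallest p were eligible. A few marker genes that the rule or lists would name are not reported here.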

Additional observations from a re-analysis of the deposited data

How the results depend on the processing

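The direction of 23 of the 27 genes held under every alternative. The exceptions are Aqp2, Aqp3, Atp6v0d2 and Slc26a4, none of them called in the fits run. Leaving out libraries or kidneys moved Aqp2 from -1.22 to 0.41, Aqp3 from -0.40 to 0.38, Atp6v0d2 from -0.53 to 1.00 and Slc26a4 from -0.26 to 0.41. Aqp3 was -0.033 in limma-voom and, with the kidney as a replicate block, -0.00068 in edgeR and -0.0025 in DESeq2. Slc26a4 was 0.027 in limma-voom, 0.015 with the block in edgeR and 0.013 with it in DESeq2. DESeq2 called 2 genes of the set lower, and 264 lower and 17 higher of all genes. With the kidney as a replicate block it called 8 of the set and 7 of the other distal list lower, and 237 lower and 41 higher of all genes, and the block in edgeR changed no call. Leaving out libraries or kidneys moved the median of the distal convoluted and connecting tubule from -1.37 to -0.53, the log2 ratio of summed levels of the thick ascending limb from -2.43 to -0.996 and that of intercalated cells from -0.53 to 0.34. The cause of these shifts was not tested. Depth limits Pvalb, with 2 counts in all, and Cldn16, with 12 to 69 per library, and the labels do not say how many animals gave the kidneys.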

Other observations

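Proximal tubule markers had values of both signs. Of 14 tested, 8 had negative and 6 positive log2 fold changes (median -0.07), and 0 passed in edgeR. Their sum was 1627, 2352 and 1384 CPM in tdT+GFP+ replicates and 1167, 2229 and 2360 CPM in tdT-GFP+ replicates, with tdT-GFP+ replicate 1 lowest, and Gpx3 (718 to 1559 CPM) and Aqp1 made up much of it. As in the distal set, tdT-GFP+ replicate 3 was the highest library for many of them (8 of 14). The difference between the lists was not tested. Slc5a2, the glucose transporter gene of the early proximal tubule, had 19.3, 37.0 and 3.35 CPM against 6.55, 4.56 and 13.0 CPM (log2 fold change 1.31, SE 0.80). The androgen-regulated gene Kap had 15.9, 41.2 and 37.0 CPM against 58.5, 79.4 and 249 CPM (-2.04, SE 0.63), without overlap. Aqp1, a water channel gene shared by proximal tubule, thin limb and endothelium, ranged from 56.6 to 1069 CPM, with the 2 extremes both in kidney 2. These genes were picked from the list after their values were seen. Among 6 injured tubule markers all had negative values (median -0.77), led in abundance by Spp1 at 1976 to 4792 CPM, and 0 passed in edgeR. With the kidney as a block DESeq2 called 1 injured tubule marker lower, Clu (adjusted p = 0.00038), and 1 proximal tubule marker, Kap (8.3e-06). It also called 1 of the 12 markers of any kidney epithelium lower, Krt8 (0.00016). Of all genes 1.66% were called lower in that fit.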
